A study of Mus musculus with 3 samples.

Results

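Non-classical monocytes of the mouse aorta were described as the cell barcodes that carried Treml4 and Ace messages together with Csf1r. A barcode was a member when it held at least 2 UMIs (unique molecular identifiers, each standing for 1 captured RNA molecule) of Treml4 and Ace together, at least 1 UMI of Csf1r, and 0 UMIs of Vcan, Cd209a, Lyve1, Gpnmb, Cd79a and Cd3e. The rule found 1184 members among 20903 barcodes that passed the limits on quality (at least 200 detected genes and at most 10% of UMIs from mitochondrial genes), which were in turn taken from 25822 called barcodes. The control library held 504 members, the library labelled HHcy 234 and the WD library 446. The members were thus selected on measured UMIs of these 9 genes, so the levels of every gene in members against other cells are given as a description, with no test.

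The series measured live nucleated CD45+ cells sorted from digested whole aortas, adventitia included, by droplet single-cell RNA sequencing of the 3′ ends of messages (Chromium 3′ v3 chemistry, per the labels). All mice, the controls included, were labelled ApoE-/- on C57BL/6J, a line that lacks the main apolipoprotein for clearing lipoprotein remnants and develops atherosclerosis. The control group had no listed treatment, the HHcy group drank water with homocysteine (Hcy) at 1.8 g/L for 4 weeks, and the WD group ate a western diet over the same span of 4 weeks. There was 1 library per group, and the labels give neither the age or sex of the mice nor how many were pooled. Every difference between libraries below is therefore a difference between 2 libraries, with no replicate check and no p-value. The intervals are 95% intervals that cover counting error only.

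Non-classical monocytes are the patrolling monocytes of the blood, which crawl along the inner surface of vessels, take up debris and arise from classical Ly6C-high monocytes. The nuclear receptor Nr4a1 is required for their formation and survival, and low Ly6c2 and Ccr2 with high Cx3cr1, Spn (CD43) and Itgal (the alpha chain of LFA-1) set them apart from classical monocytes. In atherosclerosis they are known for scavenging at the endothelium. Treml4 is a receptor of the TREM family, Ace is angiotensin-converting enzyme, Cd300e is an activating receptor that pairs with DAP12, Adgre4 is an adhesion G-protein-coupled receptor of the EMR family, and S1pr5 is a sphingosine-1-phosphate receptor used by patrolling monocytes to leave the bone marrow.

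In the GRCm38 annotation the 5 marker genes are protein coding and lie on 3 chromosomes. Treml4 is at chr17:48264295-48275360 on the plus strand and Adgre4 at chr17:55749984-55853662 on the plus strand. Ace is at chr11:105967945-105989964 on the plus strand and Cd300e at chr11:115051917-115062177 on the minus strand. S1pr5 is at chr9:21242912-21248443 on the minus strand. A 3′ library counts ends of messages, so a UMI says nothing about which exons of these genes were used.

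The library labelled HHcy went against its label in one respect. Apoe (chr7:19696109-19699188, minus strand), the gene that the labels give as disrupted, was read at 374 CPM (UMIs scaled to a library total of 1000000) over all its called barcodes, against 16.3 CPM in the control library and 19.3 CPM in the WD library. The labels do not place the disruption within the gene, and 3′ reads can lie outside it, so these counts do not settle the genotype. Within members Apoe stood at 27.3, 255 and 32.2 CPM in the control library, the library labelled HHcy and the WD library, in which 16.7%, 46.6% and 20.9% of members held a UMI. All comparisons with the library labelled HHcy rest on this 1 library, and the comparison of WD with control does not use it. Values given in threes below keep the order control, HHcy, WD.

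Median depth per member was alike in the 3 libraries. The members together held 4655526, 2350570 and 4690548 UMIs, the median member held 8093.5, 8971.5 and 8697 UMIs, and the lowest and highest single members held 937 and 50134. The median member had 2464, 2631 and 2563.5 detected genes and 2.42%, 2.37% and 3.04% mitochondrial UMIs. No barcode was a member in more than 1 library. Of the 24, 20 and 23 barcode sequences that pairs of libraries shared (control with HHcy, control with WD, HHcy with WD), 1, 0 and 3 were members in either.

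The label of non-classical monocytes was checked against Cd300e, Adgre4 and S1pr5, the 3 markers that the rule did not use. All stood far above the other kept barcodes with Csf1r and without Cd79a or Cd3e, called other Csf1r barcodes from here on, which numbered 1436, 1067 and 2421. Cd300e was at 155, 204 and 154 CPM in members and 16.3, 13.7 and 21.3 CPM in the others. Adgre4 was at 338, 301 and 264 CPM against 46, 42.9 and 36.1 CPM, and S1pr5 at 55.4, 52.8 and 49 CPM against 5.96, 5.9 and 7.74 CPM. The smallest ratio among these 9 pairs was that of S1pr5 in the WD library, at a log2 ratio of 2.66. The markers thus fitted the name in each library, and values for single cells below show where the members were mixed.

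The 2 genes of the rule were usually found together. Both Treml4 and Ace were detected in 416 of 504, 199 of 234 and 357 of 446 members, and a median member held 7, 6 and 5 UMIs of the 2 genes. By construction the members were high for both: Treml4 was at 357, 349 and 306 CPM and Ace at 499, 434 and 333 CPM, against 26.4, 33.5 and 27.1 CPM and 39.7, 28.9 and 31.7 CPM in the other Csf1r barcodes. Each marker was nearly absent from B cell barcodes (at least 2 UMIs of Cd79a and none of Csf1r), which gauge free RNA in the droplets. There, Cd300e was detected in 0.66, 0.218 and 0.738% of barcodes, against 47.2, 60.3 and 58.7% of members, and S1pr5 in 0.377, 0.328 and 0.656%, against 33.5, 32.5 and 35.6% of members. The median B cell barcode held 7740.5, 6604 and 6806.5 UMIs. Detection depends on depth: after each barcode was thinned to 2000 UMIs, which left out 8, 1 and 6 shallower members, Cd300e was detected in 25.6, 34.3 and 26.1% of members and Adgre4 in 46, 44.2 and 46.4%.

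**Figure D1:**
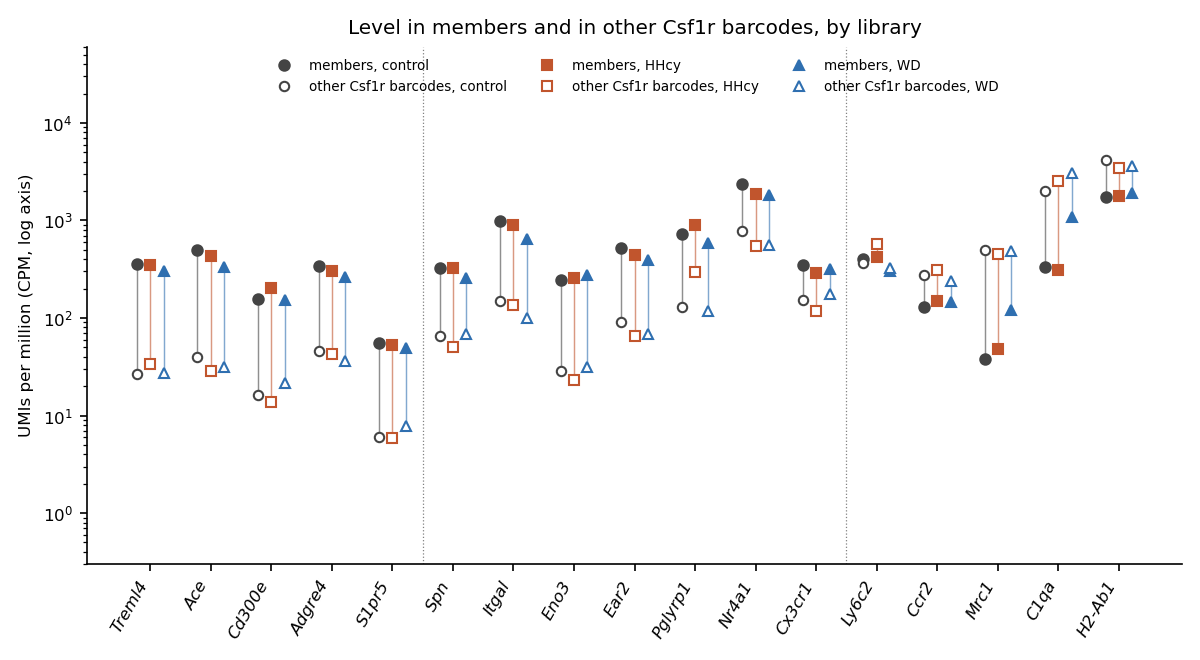
Level of 17 genes in members (filled) and in other Csf1r barcodes (open) of each library, as CPM on a log axis; the dotted lines separate the 5 marker genes, 7 other non-classical monocyte genes and 5 genes of other myeloid states. The first 12 genes were higher in members in each library, Ly6c2 lay close to the other barcodes, and Mrc1, C1qa, Ccr2 and H2-Ab1 were lower.

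Genes known from patrolling monocytes were higher in members beyond the markers. Of 8012 genes with at least 100 UMIs in members and others together in each library, 196 (2.45%) were at least 2-fold higher in members than in other Csf1r barcodes of each library and 423 (5.28%) at least 2-fold lower. With a median-of-ratios scaling in place of UMI totals the counts were 256 and 337. Among 20 further genes listed as typical of non-classical monocytes, 16 were at least 2-fold higher in each library and 0 lower. They included Spn at 327, 324 and 255 CPM against 66, 50.8 and 68.3 CPM, Itgal at 976, 899 and 649 CPM against 148, 135 and 99 CPM, and the bactericidal protein gene Pglyrp1 at 729, 901 and 592 CPM against 129, 296 and 118 CPM. Cx3cr1, the fractalkine receptor, missed the 2-fold mark in the WD library, at log2 ratios of 1.19, 1.31 and 0.85.

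The genes with the highest ratios, apart from those of the rule, were ranked by the value nearest to 0 over the 3 libraries. Eno3, the muscle-type enolase of glycolysis, led at 245, 258 and 276 CPM against 28.6, 23.1 and 31.1 CPM. It was followed by Cd300e, then by Slc12a2, a sodium, potassium and chloride cotransporter, at log2 ratios of 3.16, 3.21 and 2.84. Ceacam1, a cell adhesion molecule of the carcinoembryonic antigen family, had log2 ratios of 3.0, 2.88 and 2.82. Adgre4, Ly6i, a member of the Ly6 family of surface proteins, and Itgal came next, with log2 ratios of 3.15, 2.77 and 3.01 for Ly6i and 2.72, 2.73 and 2.71 for Itgal. S1pr5, Nxpe4, Ear2, Zfyve9, Ldlrad3, Ip6k3, Flt1 and Heg1 completed the 15. Ear2 encodes an eosinophil-associated ribonuclease and was at 523, 442 and 396 CPM in members, and the VEGF receptor gene Flt1 was at 34.6, 34.5 and 11.7 CPM in members against 7.09, 5.73 and 2.45 CPM in the others. All 15 ratios were at least 4-fold in each library.

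Transcription factors stood on both sides. Of 24 factors measured, Nr4a1, Cebpb, Pou2f2, Bcl6 and Tcf7l2 were at least 2-fold higher in members in each library, and 3, among them Irf4 and Maf, at least 2-fold lower. The shares over all 8012 genes were 2.45% higher and 5.28% lower. Nr4a1, the orphan nuclear receptor on which these cells depend, was at 2383, 1852 and 1839 CPM against 776, 549 and 555 CPM. Pou2f2 (Oct-2) was at 946, 843 and 717 CPM against 205, 172 and 218 CPM, and Cebpb, the C/EBP factor upstream of Nr4a1 in these monocytes, at 3832, 3633 and 3362 CPM against 1386, 1582 and 1354 CPM. Nr4a2, a relative of Nr4a1, was not set apart, with log2 ratios of 0.17, 0.11 and 0.24, and neither was Klf2, at -0.12, -0.47 and 0.02. Maf, a factor of macrophage identity, had log2 ratios of -2.59, -3.23 and -1.42.

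Receptors and adhesion molecules were also mixed in direction. Of 22 adhesion and trafficking genes, Itgal, Itga4 (the alpha chain of VLA-4), Cxcr4 and S1pr5 were at least 2-fold higher in each library, while 3, among them S1pr1 and Rhoc, were at least 2-fold lower. The pair of sphingosine-1-phosphate receptors thus stood on opposite sides, S1pr1 at log2 ratios of -2.14, -2.42 and -1.69 and S1pr5 at 3.22, 3.16 and 2.66. Of 17 Fc receptor and DAP12-type receptor genes, Fcgr4, Cd300e, Sirpb1c and Trem1 were higher and Fcgrt, the neonatal Fc receptor, lower. Beside these lists, 2.45% of all 8012 genes were higher and 5.28% lower by that amount in each library. Fcgr4, the low-affinity IgG receptor typical of this subset, was at 324, 339 and 331 CPM against 90.3, 108 and 122 CPM. The survival gene Bcl2 was at 131, 108 and 107 CPM against 42.2, 34 and 39.5 CPM, and Bcl2l1, which encodes Bcl-xL, at 9.45, 11.9 and 21.5 CPM against 42.7, 37.6 and 48.5 CPM, so these 2 anti-apoptotic relatives also went in opposite directions.

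None of the measured renin-angiotensin and peptidase partners of Ace marked the members. The list held 15 genes outside the rule, and 4 had enough UMIs to be measured. None was 2-fold higher in each library, beside 2.45% of all 8012 genes. Anpep (aminopeptidase N) was lower, beside 5.28% of all genes, at 28, 3 and 37 UMIs in members. These were 6.01, 1.28 and 7.89 CPM against 36, 17.1 and 29.6 CPM. The angiotensin receptor gene Agtr1a and the neprilysin gene Mme were at 0 UMIs in members of all 3 libraries, which allows up to 3 UMIs in each.

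Lipid genes of members stood on both sides of the other Csf1r barcodes. Of 24 genes of lipid handling and of the liver X receptor (LXR) pathway, the fatty acid binding protein gene Fabp4, the nuclear receptor genes Pparg and Nr1h3 (LXR-alpha) and the HDL receptor gene Scarb1 were at least 2-fold higher in members in each library, and Lpl (lipoprotein lipase) was lower. Across all 8012 genes the shares were 2.45% higher and 5.28% lower. Nr1h3 was at 80.1, 65.9 and 105 CPM against 22.6, 19.7 and 33.7 CPM and Pparg at 51.8, 59.1 and 63.7 CPM against 15.9, 9.34 and 22 CPM. Apoc2, the apolipoprotein that activates lipoprotein lipase, was at 597, 449 and 509 CPM against 95.1, 127 and 61.3 CPM. Spp1 (osteopontin), a gene of foamy macrophages, was at 25.8, 20.8 and 40.1 CPM against 1131, 210 and 947 CPM.

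The lowest genes belonged to other cell types. The 10 lowest were Gzma, Cd7, Cd209b, Spp1, Egfr, Cd209f, Fxyd2, Mmp3, Cd163 and Cd209g, among them 3 lectin genes of the Cd209 family besides the Cd209a of the rule. Cd163, the haemoglobin scavenger receptor of resident macrophages, was at 15.7, 15.7 and 30.9 CPM against 249, 319.7 and 222 CPM. Of 14 measured resident macrophage markers outside the rule, 13 were at least 2-fold lower in each library, and of 15 cell cycle genes 11 were. The share over all 8012 genes was 5.28%. The rule kept barcodes with Vcan, Cd209a, Lyve1 or Gpnmb out of the members and left them among the others. Low values of genes found in the same cells as these were thus partly set by the selection. With no exclusion by these genes, 200 genes were at least 2-fold lower in each library, against 423 by the rule. Mki67, the proliferation marker, was at 16.1, 12.8 and 32.6 CPM against 85.4, 59.6 and 75.2 CPM. The list of classical monocyte markers was not set apart in this way: 1 of 14 (Plac8) was 2-fold higher and 2 (F13a1 and Fn1) were 2-fold lower.

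Ly6c2, the defining gene of classical monocytes, was not low in members as a whole. It stood at 398, 426 and 302 CPM in members and 370.3, 572 and 324 CPM in other Csf1r barcodes, the latter a mixture with many macrophages. Against the narrower set of classical monocytes (at least 1 UMI each of Vcan and Ly6c2 and none of Treml4 or Ace, 48, 70 and 89 barcodes), which were at 2159.6, 2355 and 1992 CPM by their own rule, members were lower. Ccr2, which that rule did not use, was at 130.2, 148 and 144 CPM in members against 659, 932 and 583 CPM in classical monocytes. Cx3cr1 ran the other way, at 345, 289.7 and 316 CPM against 95.2, 99.9 and 54 CPM.

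Single members were spread along a range of Ly6c2. It was at 0 UMIs in 50.6%, 50.9% and 63.9% of members and at 5 or more UMIs in 22.4%, 23.1% and 16.4%. Cd300e was at 247, 312 and 212 CPM in members without Ly6c2, at 126, 170 and 129 CPM in those with 1 to 4 UMIs, and at 45.3, 86.9 and 45 CPM in those with 5 or more. In the trimmed members defined further on it was at 272, 366 and 285 CPM without Ly6c2 and 45.3, 105 and 39.8 CPM with 5 or more. Ccr2 took the opposite course, at 48.3, 48.7 and 108 CPM in members without Ly6c2 and 233, 269 and 250.4 CPM in those with 5 or more. The median of Treml4 and Ace UMIs did not follow Ly6c2, at 6, 6 and 5 without it and 7, 6.5 and 6 with 5 or more. Members with more Ly6c2 were deeper, with a median of 9422, 12728.5 and 12274 UMIs against 6582, 7074 and 7057. These ranges are cut from a count per cell and are not cell types, and the part of depth in them was not tested.

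A second range was set by MHC class II, the molecules that present peptides to CD4 T cells. Members with at least 100 UMIs of H2-Aa, H2-Ab1, H2-Eb1 and Cd74 together made up 23.2% (19.6 to 27.2), 26.1% (20.6 to 32.2) and 22.6% (18.8 to 26.8) of all members, and 90, 39 and 64 members lay near that limit, between 50 and 200 UMIs. Cd300e was at 61.1, 88.2 and 84.7 CPM in these members and at 202, 268 and 197 CPM in the rest. The median depth was 11186, 13785 and 15005 UMIs in these members and 7055, 7493 and 7368 UMIs in the rest. As a whole, members carried less MHC class II than other Csf1r barcodes, with H2-Aa at 1857, 2033 and 2174 CPM against 4420.5, 3784 and 4086 CPM.

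**Figure D2:**
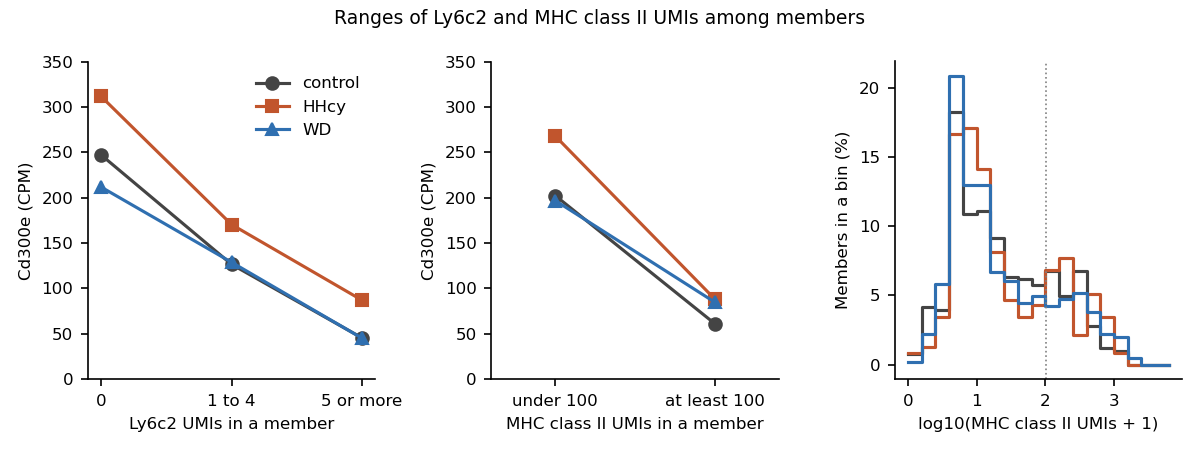
Left and middle, Cd300e level (CPM, from 0) in members by range of Ly6c2 UMIs and by range of MHC class II UMIs, 1 line per library; right, distribution of members over log10 of MHC class II UMIs plus 1, in percent of members of a library, with a dotted line at 100 UMIs. Cd300e was lower in each library at 5 or more Ly6c2 UMIs (45.3, 86.9 and 45 CPM) and at 100 or more MHC class II UMIs (61.1, 88.2 and 84.7 CPM).

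The values at the edge of the rule formed a gradient. Barcodes that met every exclusion and held exactly 2 UMIs of Treml4 and Ace, just inside the rule, numbered 59, 19 and 86, with Cd300e at 111, 59.7 and 97.5 CPM and C1qa at 824, 1658 and 2172 CPM. Those with exactly 1 UMI, just outside, numbered 94, 65 and 150, with Cd300e at 28.2, 24.6 and 44.8 CPM and C1qa at 1276, 1905 and 2768 CPM. Of the barcodes with at least 2 UMIs of Treml4 and Ace that met the demands on Csf1r, Cd79a and Cd3e (627, 327 and 674), 123, 93 and 228 were lost to a UMI of Vcan, Cd209a, Lyve1 or Gpnmb. Before that, 245 of 872, 418 of 745 and 415 of 1089 had been lost to a UMI of Cd79a or Cd3e.

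Some members carried many messages of another lineage, and their number differed between libraries. Over 1% of the UMIs came from the neutrophil genes S100a8 and S100a9 in 20 of 504, 34 of 234 and 22 of 446 members, and these few held 96.4%, 98.3% and 97.0% of the S100a8 and S100a9 UMIs of all members. At least 10 UMIs of C1qa, C1qb and C1qc, the complement genes of macrophages, were present in 42, 16 and 106 members, which held 89.3%, 87.9% and 95.5% of those UMIs. The rule on mast cell proteases marked 1, 0 and 0 members and the rule on collagens and Dcn 0, 0 and 3. The members with any of these 4 signs were deep, with a median of 15291.5, 13958.5 and 14880 UMIs against 7576.5, 8244 and 7052 in the rest. No doublet caller was run, so droplets with more than 1 cell may be among the members. The comparisons between libraries were therefore made for all members and again for the 444, 186 and 321 members without these signs, called trimmed members. This trimming was chosen after the data were examined. It uses the levels of S100a8, S100a9 and the C1q genes, so their own values in trimmed members are capped by it.

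Trimming was applied to members alone, and the other Csf1r barcodes were left as they were. Cd300e was at 175, 244 and 197 CPM, Adgre4 at 379.5, 350.4 and 352 CPM and Nr4a1 at 2508, 2109.7 and 2322 CPM in trimmed members. Genes at least 2-fold higher than in other Csf1r barcodes in each library then numbered 254, and those at least 2-fold lower 754. Taking barcodes high in another lineage out of the members only widens this contrast for genes of those lineages. These counts are therefore no check of the profile. The MHC class II range kept 19.8%, 22% and 10.9% of trimmed members, so in the WD library its share was lower by more than 2-fold without the barcodes high in another lineage. In trimmed members the migration receptor gene Ccr7 was at 59.4, 215 and 189 CPM within that range and 6.05, 14.8 and 11.9 CPM below it, and Ciita, the master regulator of MHC class II genes, at 98.3, 119 and 130.2 CPM against 9.07, 0.868 and 3.32 CPM. Few members carried Ccr7: it was detected in 13.6%, 17.1% and 17.1% of trimmed members within the range, and 5 barcodes held 64.6%, 82.3% and 77.2% of its UMIs over all members. Batf3, a dendritic cell factor, was at 41.9, 54.7 and 116 CPM against 18.5, 6.08 and 13.8 CPM. Pglyrp1, Fcgr4, Pecam1 and Dusp16 ran the other way: Pecam1 (CD31) was at 24.3, 37.1 and 27.6 CPM within the range and 106, 122 and 126 CPM below it.

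The share of members among Csf1r barcodes was highest in the control library. It was 26.0% (24.0 to 28.0, exact Clopper-Pearson interval; 504 of 1940), 18.0% (15.9 to 20.2; 234 of 1301) in the library labelled HHcy and 15.6% (14.2 to 16.9; 446 of 2867) in the WD library. Relative to control these were log2 ratios of -0.53 (-0.73 to -0.33) for HHcy and -0.74 (-0.90 to -0.58) for WD. Among trimmed members the shares were 22.9%, 14.3% and 11.2%, with log2 ratios of -0.68 and -1.03. The order of the 2 treated libraries depended on what the share was taken of: of all kept barcodes, members made up 8.35%, 2.87% and 6.65%. The place of control above WD in that share depended on the rule's exclusions. With no exclusion by Vcan, Cd209a, Lyve1 and Gpnmb the shares of kept barcodes were 10.4% in control and 10.0% in WD. Before barcodes with Cd79a or Cd3e were also left out, the barcodes with Csf1r and 2 UMIs of Treml4 and Ace numbered 872 of 6038, 745 of 8155 and 1089 of 6710, so the WD share was then the highest. A share in a sorted suspension moves with every other cell in it, and fewer members and more of the other Csf1r barcodes cannot be told apart.

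**Figure D3:**
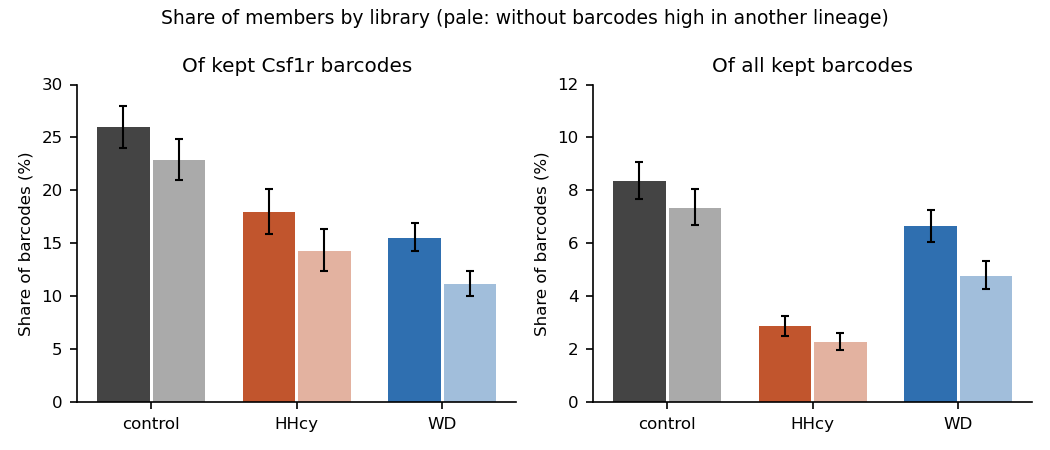
Share of members (full colour) and of trimmed members (pale) in each library, in percent of kept Csf1r barcodes (left) and of all kept barcodes (right), with exact 95% Clopper-Pearson intervals that cover counting error. By the rule control was highest in both panels (26.0% and 8.35%); the WD library was lowest on the left (15.6%) and the library labelled HHcy on the right (2.87%).

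The 5 marker genes of members lay within 1.5-fold of control in both other libraries, with Ace in WD members at the edge. Treml4 and Ace are genes of the rule, so their levels in members were conditioned on the selection in each library. Only Cd300e, Adgre4 and S1pr5 were free of it. In members of the library labelled HHcy the log2 ratios to control were -0.03 (-0.16 to 0.09) for Treml4, -0.20 (-0.31 to -0.09) for Ace, 0.39 (0.22 to 0.56) for Cd300e, -0.17 (-0.30 to -0.04) for Adgre4 and -0.07 (-0.39 to 0.24) for S1pr5, with intervals from the exact conditional binomial distribution. Of 20 other non-classical monocyte genes 0 were at least 1.5-fold higher and 1 (Hes1) lower. Of all 7826 genes with at least 50 UMIs in the 2 libraries together, 3.69% were higher and 5.3% lower by that amount. The list of 20 had a median log2 ratio of -0.12, beside -0.04 over all these genes. Nr4a1 was at a log2 ratio of -0.36 (-0.42 to -0.31). In WD members Treml4 was at -0.22 (-0.33 to -0.12), Cd300e at -0.01 (-0.16 to 0.14), Adgre4 at -0.36 (-0.47 to -0.25), S1pr5 at -0.18 (-0.44 to 0.09), Ace at -0.58 (-0.68 to -0.49) and Itgal at -0.59 (-0.65 to -0.52); in trimmed WD members these were -0.36 (-0.46 to -0.25) and -0.36 (-0.43 to -0.28). The list had a median of -0.28 in WD members, with Itgal and Cd36 at least 1.5-fold lower, and of -0.10 in trimmed members, with Cd36 lower. Of all genes, 3.21% were at least 1.5-fold lower in WD members and 3.47% in trimmed members. The comparisons of HHcy and of WD use the same control library, so their values are not independent.

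Most of the 10 highest named genes in the library labelled HHcy were neutrophil genes. Of 7826 genes, 107 (1.37%) were at least 2-fold higher than in control members and 91 (1.16%) at least 2-fold lower, and in trimmed members 57 (0.807%) and 41 (0.58%) of 7067. Mmp8, Apoe, Retnlg, Wfdc21, S100a9, Il1f9, Ifitm1, Mmp9, S100a8 and Cxcr2 were the 10 highest among genes with under 50% of their UMIs in 5 barcodes. All but Apoe are known from neutrophils, and Ifitm1 also from other cells. All 10 neutrophil markers were at least 1.5-fold higher, beside 3.69% of all genes measured. Their summed level was 4687 CPM in control members, 23490 CPM in the library labelled HHcy and 7539 CPM in WD, and in the other Csf1r barcodes 3961, 19276 and 4142 CPM, so the order of the libraries was the same outside the members. In B cell barcodes, which do not make these messages, the list summed to 653, 2409 and 1024 CPM. Over all called barcodes, S100a8 and S100a9 made up 0.45%, 1.02% and 0.539% of UMIs. The collagenase gene Mmp8 was at 10.1 CPM in control and 104 CPM in HHcy members, a log2 ratio of 3.36 (2.91 to 3.84), and at -0.66 (-2.73 to 1.01) in trimmed members. The kappa light chain gene Igkc of B cells was higher as well, at 72, 357 and 70.8 CPM and in 44.8, 96.6 and 48.4% of members, and in trimmed members at a log2 ratio of 2.17 (1.96 to 2.37). The part of free RNA and of mixed droplets in these values was not tested.

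Apoe differed by a similar amount in trimmed members. It was at 27.3, 255 and 32.2 CPM in members and 27.8, 249 and 27.2 CPM in trimmed members, log2 ratios to control of 3.23 (2.95 to 3.51) and 3.16 (2.85 to 3.49). Single members with at least 10 Apoe UMIs numbered 0, 17 and 1. The other Csf1r barcodes had a log2 ratio of 5.21, larger than that of the members. The part of free RNA in the Apoe values of members was not tested.

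Inducible heat shock genes were lower in the library labelled HHcy. Of 19 measured genes of the dissociation and heat shock response, Hspa1a, Hspa1b and Hsph1 were at least 1.5-fold lower, 0 were higher, and the median was -0.36. The share of all genes at least 1.5-fold lower was 5.3% in members and 4.25% in trimmed members. In trimmed members Hspa1a and Hspa1b were lower by that amount and Hsph1 was not, with a median of -0.30 for the list. In the other Csf1r barcodes of that library Hspa1b and Hsph1 were lower by that amount, with a median of -0.12, beside 495 of 11292 genes. Hspa1a, an inducible HSP70 gene, was at 317, 101 and 362 CPM, a log2 ratio of -1.65 (-1.85 to -1.45), and -1.40 (-1.65 to -1.15) in trimmed members. Its neighbour Hspa1b was at 279, 86.8 and 238 CPM, a log2 ratio of -1.68 (-1.90 to -1.47), and -1.50 (-1.76 to -1.24) in trimmed members. The constitutive Hspa8 stood at -0.05. These 2 HSP70 genes are nearly identical, and reads can be split between them. Both are known to respond to handling of the tissue, and handling and treatment cannot be told apart with 1 library per group.

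Several of the lowest HHcy genes were not low in trimmed members. The 10 lowest were Itga6, Fn1, Ednrb, Ltc4s, Ecm1, Hspa1b, Fgfr1, Hspa1a, C4b and Plxna4os1. The integrin gene Itga6 was at 241, 12 and 155 UMIs in members, or 51.8, 5.11 and 33 CPM. Fn1 (fibronectin) was at a log2 ratio of -2.45 (-2.68 to -2.23) in members and -0.34 (-0.67 to -0.01) in trimmed members, and Ecm1 at -1.79 (-2.19 to -1.40) and 0.42 (-0.34 to 1.15). C4b, Ecm1, Ednrb and Ltc4s changed sign on trimming, to 0.56, 0.42, 0.34 and 0.32. Besides the 2 HSP70 genes, Plxna4os1, an antisense transcript, kept its value at -1.51 (-2.57 to -0.58). Antisense and sense reads can be told apart only in counts by strand, and the strand setting is not given in the sources used here.

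**Figure D4:**
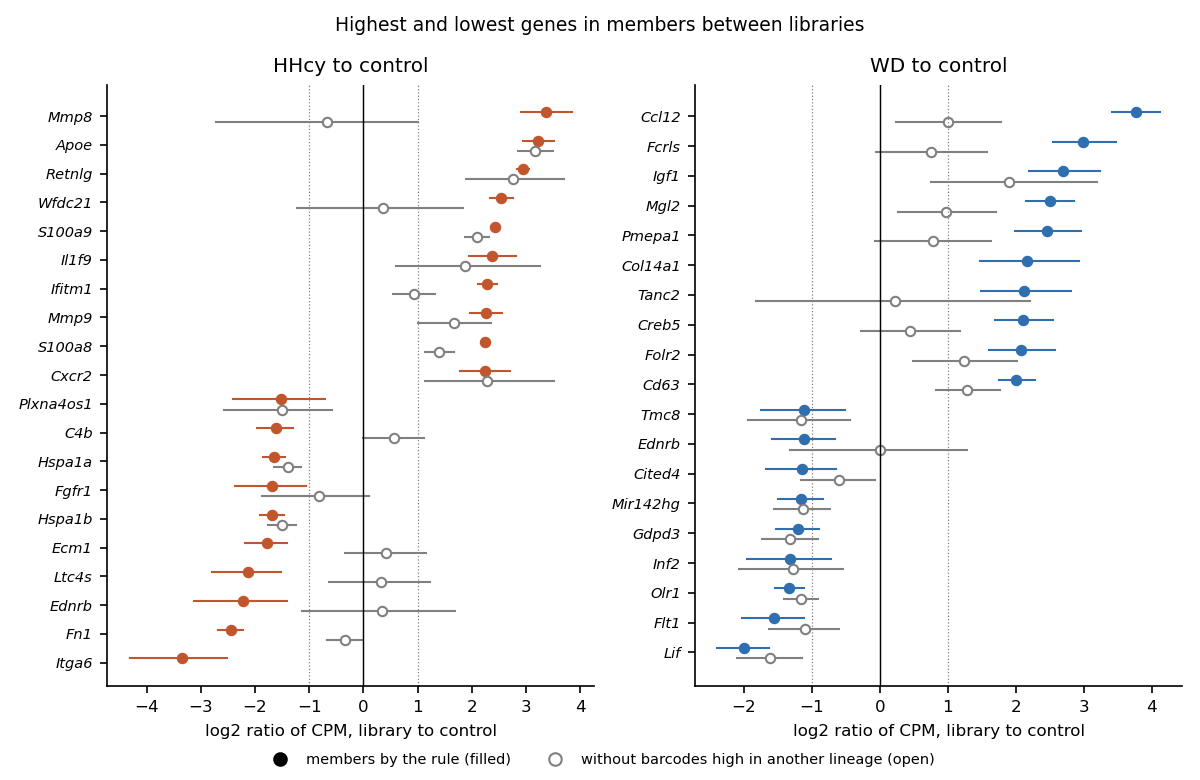
Log2 ratio of CPM to control for the reported genes among the 10 highest and 10 lowest of each comparison, in members by the rule (filled) and trimmed members (open; not drawn where either library held 3 UMIs or fewer), with 95% counting intervals; dotted lines mark 2-fold. Left, library labelled HHcy; right, WD. Apoe, Hspa1a and Hspa1b kept their HHcy values in trimmed members, and most of the genes highest in WD moved towards 0 while Lif and Olr1 stayed low.

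Few interferon genes passed 1.5-fold in HHcy members, and those that did in trimmed members were lower. Of 23 interferon-stimulated genes, 1 (Ifit3) was at least 1.5-fold higher and 1 (Stat2) lower in members, with a median of -0.12, and 0 higher and 5 lower (among them Rsad2, Oasl1, Stat2 and Ifi44) in trimmed members, with a median of -0.26, beside 4.25% of all genes lower; 3 of the 23 were higher by any amount. Stat2, a signal transducer of type I interferon receptors, was at 54.1, 30.2 and 52.7 CPM, log2 ratios of -0.84 (-1.24 to -0.46) in members and -0.83 (-1.30 to -0.38) in trimmed members. Of 24 inflammatory genes, Il1b and Il1a were at least 1.5-fold higher in members and 0 lower. In trimmed members Ptgs2 alone of 23 was higher and 0 lower. Of all genes, 3.69% were at least 1.5-fold higher and 5.3% lower in members, and 3.69% were higher in trimmed members. Il1b was at 1946, 3011 and 1389 CPM, 0.63 (0.58 to 0.67) in members and 0.44 (0.38 to 0.49) in trimmed members, while the other Csf1r barcodes stood at 0.62. The growth factor gene Csf1 was at 12.2, 41.7 and 18.5 CPM, 1.77 (1.28 to 2.27) in members and 1.22 (0.52 to 1.93) in trimmed members. Csf1 was also at least 1.5-fold higher in the other Csf1r barcodes of the library labelled HHcy.

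The genes of homocysteine metabolism were scarcely measurable. Of 16 listed genes of the homocysteine and methionine cycle, 7 had at least 50 UMIs in control and HHcy members together. Of these 0 were at least 1.5-fold higher, beside 3.69% of all genes, and the median was -0.15. For WD, 8 were measured and 1 (Shmt2) was at least 1.5-fold higher in members, beside 7.25% of all genes. In trimmed members 0 of 7 passed either way.

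Macrophage genes were among the 10 highest named genes in WD members. Of 8563 genes, 207 (2.42%) were at least 2-fold higher than in control and 45 (0.526%) at least 2-fold lower, and in trimmed members 61 (0.812%) and 30 (0.399%) of 7513. The 10 highest among genes with under 50% of their UMIs in 5 barcodes were Ccl12, Fcrls, Igf1, Mgl2, Pmepa1, Col14a1, Tanc2, Creb5, Folr2 and Cd63. Ccl12, a monocyte-attracting chemokine, was at 16.1, 24.7 and 219 CPM, a log2 ratio of 3.76 (3.42 to 4.12), and at 1.00 (0.24 to 1.78) in trimmed members. Of 14 resident macrophage markers, 11 were at least 1.5-fold higher, beside 7.25% of all genes, with a median of 1.49. In trimmed members 8 of 13 were, with a median of 0.71, beside 4.82% of all genes. Their summed level was 1516, 1418 and 4060 CPM in members of the 3 libraries and 9550, 11497 and 12212 CPM in the other Csf1r barcodes. C1qa was detected in 37.3, 42.3 and 60.3% of members. Lists carried by few barcodes had larger ratios: the fibroblast list, with 3 WD members marked by collagens and Dcn, had a median of 4.30 in WD, and the mast cell list, with 1 control member marked, medians of -5.42 in HHcy and -5.59 in WD. The part of mixed droplets in the WD values was not tested.

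Cholesterol export genes and Scd1 were higher in WD members, while the lipid list as a whole was not. The cholesterol exporter gene Abca1 was at 67.7, 57.9 and 123 CPM and a log2 ratio of 0.87 (0.67 to 1.07), and 0.97 (0.71 to 1.23) in trimmed members. Its partner Abcg1 was at 194, 188 and 282 CPM, at 0.54 (0.42 to 0.67) and 0.74 (0.59 to 0.88). The desaturase gene Scd1 was at 9.88, 23 and 24.5 CPM, at 1.31 (0.81 to 1.84) and 1.77 (1.17 to 2.40). Abcg1 was under 1.5-fold in members by the rule. For Abca1 and Abcg1 the WD library stood above the other libraries, while Scd1 was also high in the library labelled HHcy, at 1.22 (0.62 to 1.82).

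Some genes of lipid uptake and sterol feedback were lower in WD members. Insig1, which holds back the sterol sensor of the endoplasmic reticulum, was at 57.4, 41.3 and 36 CPM, a log2 ratio of -0.67 (-0.96 to -0.39) in members and -0.66 (-1.06 to -0.26) in trimmed members. The fatty acid and oxidised lipoprotein receptor gene Cd36 was at 277, 218 and 173 CPM, at -0.68 (-0.81 to -0.55) and -0.60 (-0.76 to -0.45). Olr1, the lectin-like receptor of oxidised LDL, was at 139, 69.3 and 55 CPM, at -1.33 (-1.55 to -1.12) and -1.16 (-1.41 to -0.91). For Insig1, Cd36 and Olr1 the WD library was the lowest of the 3, and the other Csf1r barcodes were lower as well, at -0.67, -0.32 and -0.67. Over the whole list of 24 lipid genes 3 were at least 1.5-fold higher (Abca1, Scd1 and Lpl) and 3 lower (among them Cd36 and Insig1) in members, and 3 (Abca1, Abcg1 and Scd1) and the same 3 lower in trimmed members. Of all genes 7.25% were at least 1.5-fold higher and 3.21% lower in members, and 4.82% and 3.47% in trimmed members. The list's median was -0.02 and 0.01, beside 0.00 and -0.01 over all genes, so equal numbers of listed genes stood on either side.

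Of the 10 lowest WD genes, 8 were also at least 2-fold lower in trimmed members. Among them were Lif, Flt1, Olr1, Inf2, Gdpd3, Mir142hg and Tmc8. The cytokine gene Lif was at 64.2, 44.2 and 16 CPM, a log2 ratio of -2.01 (-2.39 to -1.64), and -1.61 (-2.10 to -1.15) in trimmed members, against -0.29 in the other Csf1r barcodes. Flt1 was at -1.56 (-2.03 to -1.11) in members and -1.10 (-1.63 to -0.60) in trimmed members, and Gdpd3, a lysophospholipase D gene, at -1.21 (-1.53 to -0.90) and -1.32 (-1.74 to -0.92). Gdpd3 was as low in the library labelled HHcy, at 59.3, 23.4 and 25.6 CPM. The other two were Cited4, at -0.61 (-1.16 to -0.07), and the endothelin receptor gene Ednrb at 0.01 (-1.33 to 1.28), both in trimmed members.

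A part of the interferon-stimulated genes was higher in WD members, and fewer after trimming. Of 23 genes, 7 were at least 1.5-fold higher (Ifit1, Ifit3, Oasl1, Usp18, Cxcl10, Rtp4 and Phf11d) and 0 lower, with a median of 0.51. In trimmed members 3 were higher (Usp18, Rtp4 and Phf11d) and 0 lower, with a median of 0.23. Of all genes, 7.25% were at least 1.5-fold higher in members and 4.82% in trimmed members. Rtp4, an interferon-induced chaperone gene, was at 93.7, 106 and 151 CPM, 0.69 (0.51 to 0.86) in members and 0.77 (0.56 to 0.98) in trimmed members. The antiviral gene Ifit3 was at 28.6, 43 and 59.7 CPM, 1.06 (0.76 to 1.37) and 0.49 (0.11 to 0.88). In the other Csf1r barcodes Rtp4 was at 0.72 and Ifit3 at 1.23.

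Several cell cycle and complement genes were also higher in WD members, the cell cycle genes through few barcodes. Of 9 cell cycle genes with enough UMIs, 6 were at least 1.5-fold higher, beside 7.25% of all genes, with a median of 0.67. In trimmed members 3 of 6 were, beside 4.82% of all genes, with a median of 0.58. In the WD library 5 of 446 members held 52.9% of the UMIs of Mki67, 66% of Birc5, 65.8% of Pclaf and 56.3% of Stmn1. Mki67 was at 16.1, 12.8 and 32.6 CPM and in 6.55, 4.7 and 7.62% of members, at 1.02 (0.61 to 1.44) in members and 1.12 (0.46 to 1.80) in trimmed members. Of 17 complement and clearance genes 8 were at least 1.5-fold higher and 0 lower, and 8 of 15 in trimmed members, beside the same shares of all genes, among them the C1q genes, whose values the trimming caps. Cd93, a clearance receptor gene, was at 34.6, 31.5 and 52.7 CPM, 0.61 (0.31 to 0.90) and 0.62 (0.18 to 1.06). The factor B gene Cfb was at 58.9, 63.8 and 73.3 CPM, 0.32 (0.08 to 0.55) and 0.75 (0.45 to 1.05).

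Receptor and antigen presentation lists held few genes past 1.5-fold, and so did the genes as a whole. Of all genes, 3.69% were at least 1.5-fold higher and 5.3% lower in HHcy members, and 7.25% and 3.21% in WD members. In trimmed members these shares were 3.69% and 4.25% in HHcy and 4.82% and 3.47% in WD. In the library labelled HHcy, 0 of 18 Fc and DAP12-type receptor genes, 0 of 12 MHC class II and 0 of 12 MHC class I genes were at least 1.5-fold different in members. In WD members these numbers were 1 of 18 (Fcgrt, higher), 0 of 13 and 0 of 12. In trimmed members H2-Ob was higher and Cd80 lower in HHcy, H2-Ob and Fcgrt were higher and Lilra6 lower in WD, and 0 MHC class I genes passed in either. Of 21 adhesion and trafficking genes, Icam2 was at least 1.5-fold lower in HHcy members, Rhoc higher and Itgal and Itgb7 lower in WD members, and Cxcr4 was at least 1.5-fold lower in both libraries, at 673, 412 and 399 CPM, log2 ratios of -0.71 (-0.81 to -0.60) in HHcy and -0.75 (-0.84 to -0.67) in WD members, and -0.73 (-0.85 to -0.61) and -0.55 (-0.65 to -0.45) in trimmed members. Of 19 such genes in trimmed members, 1 was higher and 1 (Cxcr4) lower in HHcy, and 0 were higher and 1 (Itgb7) lower in WD. Cxcr4 is the receptor of the marrow chemokine CXCL12. The other Csf1r barcodes were lower by about the same amount, at -0.78 and -0.66. Of the 24 transcription factors, Nr4a2 was at least 1.5-fold lower in members of both, at -0.69 (-0.87 to -0.51) and -0.81 (-0.96 to -0.66), but not in trimmed members, at -0.48 (-0.68 to -0.28) and -0.58 (-0.75 to -0.40). In trimmed members 0 of 23 factors were past 1.5-fold in HHcy, and in WD Cebpd and Irf8 were higher and Nr4a3 lower. With 1 control library, a control that stood high for Cxcr4 and Nr4a2 cannot be told apart from lower values in both treated libraries.

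**Figure D5:**
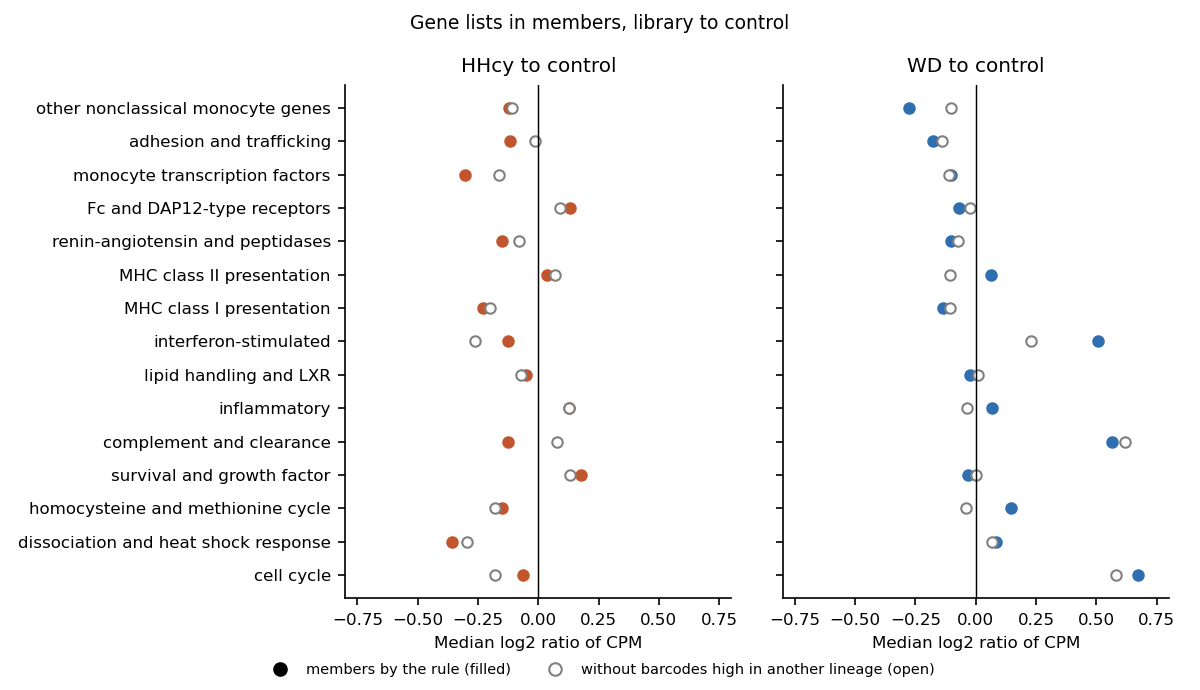
Median log2 ratio of CPM to control over the measured genes of 15 lists, in members by the rule (filled) and trimmed members (open), for the library labelled HHcy (left) and WD (right). In HHcy the heat shock list was lowest (-0.36 in members); in WD the cell cycle (0.67), complement (0.57) and interferon (0.51) lists were highest.

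Markers of other cell types in members are given as totals for the lists. The B cell list, with Cd79a at 0 by the rule, summed to 252, 607 and 246 CPM in members and 283, 633 and 293 CPM in the other Csf1r barcodes. The T cell list summed to 18.5, 19.1 and 14.1 CPM, with Cd3e at 0 by the rule, and the smooth muscle list to 4.30, 10.6 and 17.7 CPM, with Myh11 at 0 in all 3 libraries. The fibroblast list summed to 59.7, 101 and 421 CPM, and 3 WD members with 5 or more collagen or Dcn UMIs were among those removed by trimming. The endothelial list summed to 48.1, 67.6 and 54.4 CPM, of which Flt1, a gene that also ranked among the 15 highest in members, gave 34.6, 34.5 and 11.7 CPM. The platelet list summed to 8.16, 5.53 and 11.5 CPM. The mast cell list summed to 309, 222 and 85.5 CPM, and 1 control member with many protease UMIs was removed by trimming. In HHcy and WD members Hdc alone gave 217 and 77.6 CPM of this list, and 51.7 and 24.5 CPM in trimmed members. The NK cell list summed to 165, 148 and 81.4 CPM, nearly all of it Ccl5, with Klra4 at 0. Dendritic cell markers were low as well: the conventional list summed to 206, 262 and 315 CPM, most of it Tnip3, with Cd209a at 0 by the rule.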

How the data were processed

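The authors deposited, for each of 3 libraries, a matrix of raw UMI counts for 32285 genes per called barcode. The file headers name Cell Ranger 4.0.0, while the submitters' processing notes name Cell Ranger 2.2.0 and the build mm10. Aligner settings and gene annotation are not given in the sources used here. Coordinates come from the GENCODE annotation of GRCm38, the same assembly, matched by Ensembl identifier.

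Barcodes were filtered and members chosen as stated in the report, without a doublet caller. UMIs were summed over members and divided by their total (CPM). Ratios of CPM between libraries carry exact conditional binomial intervals and shares carry Clopper-Pearson intervals, both covering counting error only. With 1 library per group no test was made; genes with at least 50 UMIs in both libraries together were called at 2-fold, and lists described at 1.5-fold. Calls and ranks add 0.5 UMIs to each count. Named genes were the 15 highest and 10 lowest in members against other Csf1r barcodes (at least 100 UMIs in each library), and the 10 highest and lowest per comparison with at least 100 UMIs, a UMI in 5% of members of the higher library and under 50% of its UMIs in 5 barcodes; mitochondrial, ribosomal, immunoglobulin, T cell receptor, sex-linked and unnamed genes were left out. Genes of the fixed lists were also named; Batf3, Pecam1 and Ciita in the MHC class II range, and any other gene outside these rules, were chosen after their values were seen. The members, lists and tests were chosen with earlier results of these data known. Python 3.11.15, numpy 2.4.6, scipy 1.17.1 and pandas 2.3.3 were used. Some genes that met these rules are not reported here, and the counts include them.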

Additional observations from a re-analysis of the deposited data

How the results depend on the processing

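No paired analysis was possible because each group has 1 library and the comparison of libraries comes from no test. Over all alternatives 8362 values of genes and lists were recomputed. Of these, 6833 stayed within their counting interval, 1510 moved outside it and 19 changed sign. A change of sign was counted only for genes at least 2-fold and lists at least 1.5-fold from control in members by the rule. Smaller ratios whose sign changed were counted by their interval alone. The limits on detected genes and on mitochondrial UMIs, a stricter rule on Treml4 and Ace and both other scalings gave no counted change of sign. The median-of-ratios scale factor differed from that of UMI totals by a log2 of -0.04 (HHcy) and 0.00 (WD). Log2 ratios moved by these amounts in the opposite direction, so the HHcy ratios rose. Depth limits all small values: thinned to 2000 UMIs per barcode, 559 values were left. The log2 ratio of the member share to control was -1.54 (HHcy) and -0.33 (WD) when taken of all kept barcodes. For WD it was -0.94 after thinning, -0.46 with no exclusion by Vcan, Cd209a, Lyve1 and Gpnmb, and -1.03 without barcodes high in another lineage.

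The number of genes past a threshold depended most on the minimum of UMIs. With at least 1 UMI, 1508 genes were 2-fold higher and 1289 lower in HHcy, and 2671 higher and 1372 lower in WD. With at least 200 UMIs these were 37, 19, 75 and 13, and at 1.5-fold 289, 415, 621 and 275. After thinning they were 20, 15, 19 and 28. Without barcodes with 3 markers of another lineage 38 genes were higher and 137 lower in HHcy, and 89 higher in WD. Without barcodes high in another lineage 57 were higher and 41 lower in HHcy, and 61 higher in WD. With no exclusion by the 4 genes 514 were higher in WD, and with each barcode weighted equally 69 were lower in WD. For members against other Csf1r barcodes in each library, 452 genes were higher and 938 lower at 1.5-fold, and 129 and 238 after thinning. With median-of-ratios scaling 256 were higher and 337 lower, and with no exclusion 200 were lower. Without barcodes high in another lineage among the members, but with the other Csf1r barcodes untrimmed, 754 were lower.

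Log2 ratios at least 2-fold from control in members by the rule that changed sign are given with 0.5 UMIs added. Without barcodes high in another lineage they became 0.56 for C4b, -0.14 for Cd177, 0.43 for Ecm1, 0.37 for Ednrb, 0.34 for Ltc4s, -1.07 for Ngp and 0.038 for Pf4 in HHcy, and -0.035 for Ccl2, 0.026 for Ednrb and -0.20 for Ngp in WD. Without barcodes with 3 markers of another lineage they became -0.86 for Ccr7, -0.45 for Cd63, -0.28 for Fabp5 and -0.52 for Ifitm1 in HHcy, and -0.20 for Ccr7 in WD. After thinning Trem2 became -0.38 in WD. With no exclusion by the 4 genes Pclaf became 0.56 and Pf4 0.069 in HHcy, and Ednrb 0.90 in WD. The cause was not tested.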

Other observations

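Some inflammatory and survival genes of WD members went in different directions. Il10, the anti-inflammatory cytokine gene, was at 33.5, 44.2 and 79.9 CPM in members of the control library, the library labelled HHcy and the WD library, a WD log2 ratio to control of 1.25 (0.98 to 1.53) in members and 1.03 (0.70 to 1.36) in trimmed members. Ptgs2, which encodes cyclooxygenase-2, was at 249, 349 and 145 CPM, at -0.78 (-0.92 to -0.64) and -0.91 (-1.10 to -0.72), and Bcl2l1 at 9.45, 11.9 and 21.5 CPM, at 1.19 (0.66 to 1.73) and 1.18 (0.39 to 2.0). Irf8, a factor of monocyte and dendritic cell development, was at 162, 126 and 224 CPM, at 0.47 (0.33 to 0.61) and 0.71 (0.54 to 0.87). Of 24 inflammatory genes Il10, Ccl2 and Ccl9 were at least 1.5-fold higher and Ptgs2 lower in WD members, and the median of that list was 0.07. In trimmed members Il10 alone of 23 was higher, Ptgs2 and Tlr2 were lower, and the median was -0.04. Of all genes, 7.25% were at least 1.5-fold higher and 3.21% lower in members, and 4.82% and 3.47% in trimmed members.

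Fabp5, a fatty acid binding protein gene, was at 127, 261 and 319 CPM in members, with HHcy and WD log2 ratios of 1.05 (0.88 to 1.21) and 1.33 (1.20 to 1.47) in members and 1.22 (1.03 to 1.41) and 0.79 (0.61 to 0.97) in trimmed members. Few barcodes carried it: 5 members held 64.3% (HHcy) and 57.6% (WD) of its UMIs, with up to 263 and 287 UMIs in 1 member, and without barcodes with 3 markers of another lineage the HHcy log2 ratio was -0.28. Chil3, a chitinase-like gene of classical monocytes and neutrophils, was at 225, 538 and 269.9 CPM, at 1.26 (1.14 to 1.38) in HHcy members and 1.4 (1.26 to 1.54) in trimmed members. It was also at least 1.5-fold higher in the other Csf1r barcodes of the library labelled HHcy. The comparisons of HHcy and of WD use the same control library.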
